A study of Homo sapiens with 10 samples.

Results

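The 8 genes described here, ASNS, PYCR1, ALDH18A1, GPT2, GOT1, GOT2, GLUL and BCAT1, encode enzymes of asparagine, proline and glutamine synthesis and transaminases. They were chosen by symbol, and each matched 1 of the 28380 rows of the count table. Sulforaphane (SFN) for 4 h raised the mRNA of the enzymes that make asparagine and alanine, and lowered that of the enzyme that makes glutamine. The cells were RPE-1, an established human retinal pigment epithelial line immortalized with telomerase, at 50000 cells per replicate. The 5 treated replicates received 25 µM SFN, an isothiocyanate from cruciferous vegetables, and the 5 control replicates received the vehicle DMSO. Both groups were kept in complete DMEM supplemented with serum and with non-essential amino acids. Nothing in the labels says whether the replicates were separate cultures on separate days, so the p-values cover only the spread between these samples.

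All these enzymes but PYCR1 have glutamate as a substrate or product, and all but BCAT1 act in making amino acids that cells need not take up. ASNS moves the amide nitrogen of glutamine onto aspartate to make asparagine. GLUL makes glutamine from glutamate and ammonia. ALDH18A1 and then PYCR1 turn glutamate into proline inside mitochondria. GPT2 (mitochondrial alanine), GOT1 (cytosolic aspartate), GOT2 (mitochondrial aspartate) and BCAT1 (cytosolic branched-chain amino acids) are transaminases, which pass an amino group between an amino acid and a keto acid. ASNS is known as a target of ATF4, the transcription factor that is translated when amino acids run short or the endoplasmic reticulum is stressed. ATF4 binds, together with C/EBP family proteins, to sites with the core TGATGNAA, where N is any base.

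RefSeq start sites (GRCh38.p14) were at hand for 6 of the 8 genes, with 12 start sites in all, and the 250 bases before each were searched for TGATGNAA on both strands. ASNS, GOT1 and BCAT1 each had a match at 1 start site, so 3 of the 12 windows held one. Of the 35116 promoter windows of all genes 3.14% did. Whether these shares differ was not tested. The stretches are shown because ASNS and GOT1 rose and BCAT1 was not past the threshold. All lie on the minus strand and are written 5′ to 3′ toward the start, with the match in capitals. The ASNS stretch is chr7:97872409-97872658 with the match beginning 68 bases before the start, the GOT1 stretch is chr10:99430625-99430874 with the match in reverse orientation 198 bases before the start, and the BCAT1 stretch is chr12:24949102-24949351 with the match 48 bases before the start.
ASNS: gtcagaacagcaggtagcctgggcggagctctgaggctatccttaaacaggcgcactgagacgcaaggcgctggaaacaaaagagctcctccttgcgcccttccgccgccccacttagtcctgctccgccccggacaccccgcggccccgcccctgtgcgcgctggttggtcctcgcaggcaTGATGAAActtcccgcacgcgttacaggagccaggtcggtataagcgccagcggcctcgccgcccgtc
GOT1: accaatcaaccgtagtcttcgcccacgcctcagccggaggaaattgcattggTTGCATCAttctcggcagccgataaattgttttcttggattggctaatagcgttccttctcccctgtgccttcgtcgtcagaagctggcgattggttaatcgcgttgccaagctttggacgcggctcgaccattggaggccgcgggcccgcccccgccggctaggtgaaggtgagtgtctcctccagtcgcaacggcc
BCAT1: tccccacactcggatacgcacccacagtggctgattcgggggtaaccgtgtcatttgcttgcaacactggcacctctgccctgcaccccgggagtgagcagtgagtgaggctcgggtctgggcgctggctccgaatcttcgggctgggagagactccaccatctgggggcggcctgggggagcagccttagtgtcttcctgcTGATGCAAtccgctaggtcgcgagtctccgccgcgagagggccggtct
The windows were also searched for CACGTG, a site of MYC and related factors, which stood 136 bases before the ALDH18A1 start and is in 6.34% of all windows. The antioxidant response core TGACNNNGC, bound by NRF2, stood 56 bases before the GOT2 start and is in 10.9% of all windows. A match of letters is a description and was not tested for binding.

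RNA was measured with Lexogen QuantSeq libraries, which read transcripts near their 3′ ends, and the values are reads per gene. Libraries held 15689294 to 20666692 counts in DMSO and 12375860 to 17308706 in SFN. After a low-count filter 13378 genes were tested, all 8 enzymes among them, and levels are given as CPM (reads of a gene relative to the TMM-scaled total of its library). Of the 8 markers of retinal pigment epithelium 7 were in the table and 3 were tested, and their summed level was 50.1 to 90.5 CPM in DMSO and 46.5 to 127 CPM in SFN. RPE65, RLBP1, TYRP1 and SERPINF1 had at most 4 counts in any library. Of the 3 tested markers MITF, a regulator of pigment cell genes, fell from 50.8 ± 4.95 to 23.4 ± 2.78 CPM (SD, n = 5 each). BEST1 had a log2 fold change of 1.17, not past the threshold, and of 1.68 without DMSO replicate 1 (adjusted p = 0.00961, edgeR), and PMEL had 0.14. The part of these markers in the changes of the enzymes was not tested. The epithelial keratins KRT8 and KRT18 summed to 490 to 771 CPM in DMSO and 511 to 856 CPM in SFN. Summed markers of immune and endothelial cells reached at most 1.25 CPM in either group. DMSO replicate 1 stood apart, with a mean Spearman correlation of 0.935 across genes with the other DMSO libraries, against at least 0.979 for those. Values are therefore given with and without it where they rest on it. Counts are shares of a library, so less RNA of a gene per cell and fewer cells that express it cannot be told apart.

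SFN changed 5 of the 8 enzymes (adjusted p under 0.05, edgeR). ASNS, GPT2, PYCR1 and GOT1 rose, where 9.07% of all genes tested did, and GLUL fell, where 13.9% did. These background shares were 22.5% and 23.5% without DMSO replicate 1, when ALDH18A1 fell as well. ASNS and GPT2 rose more than 2-fold, as 2.94% of the genes tested did, and 0 of the 8 fell more than 2-fold, as 5.76% did. In the 4 increased genes every SFN library lay above every DMSO library, as for 8.78% of all genes, and for GLUL every SFN library lay below, as for 11.1%. ALDH18A1, GOT2 and BCAT1 were not past the threshold. The median log2 fold change of the 8 was 0.27, beside -0.028 for all genes tested. Increases made up 39.5% of all calls, and 27.5% when libraries were scaled by their totals alone.

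**Figure D1:**
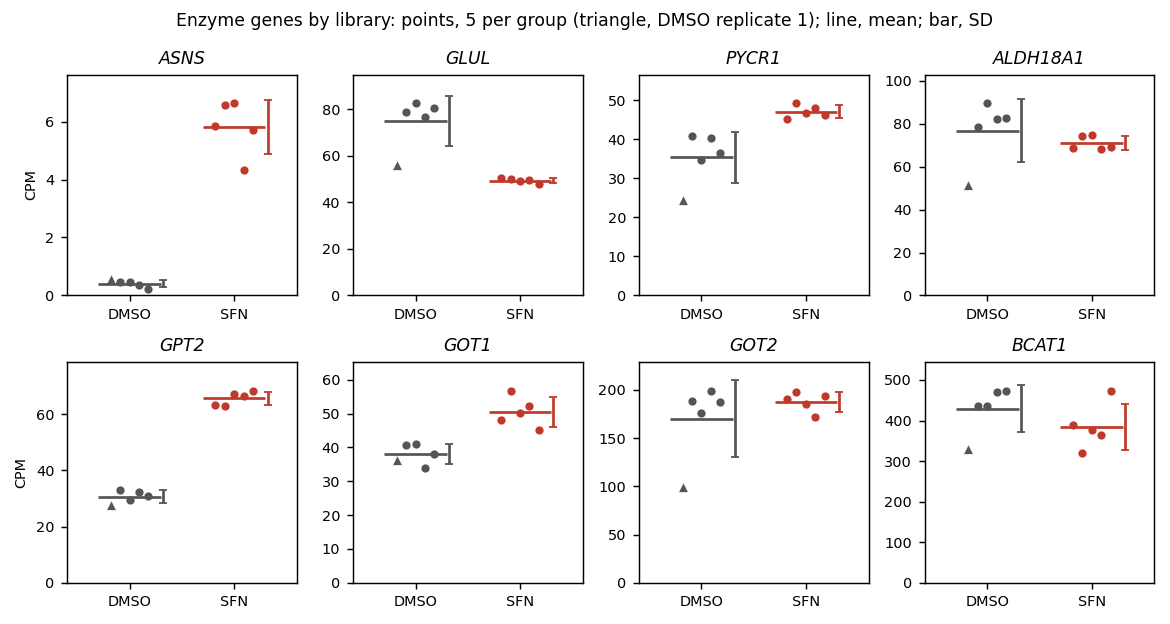
Level of each enzyme mRNA in CPM (linear axis from 0) in the 5 DMSO and 5 SFN libraries, with the mean as a line, the SD as a bar and DMSO replicate 1 as a triangle. SFN libraries lie apart from DMSO libraries for ASNS, GLUL, PYCR1, GPT2 and GOT1, and the triangle is the lowest DMSO point in every panel but those of ASNS and GOT1.

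ASNS, asparagine synthetase, showed the largest change of the 8. It lies on chromosome 7 of GRCh38 from 97851677 to 97872542 on the minus strand. The DMSO libraries held 9, 10, 8, 6 and 4 counts in replicates 1 to 5, and the SFN libraries 98, 76, 89, 64 and 81. Every treated library thus held several times more reads than the highest control. In CPM the level was 0.412 ± 0.121 (SD, n = 5) in DMSO and 5.81 ± 0.930 (SD, n = 5) in SFN, a 13.8-fold rise (3.79 on the log2 scale, standard error 0.24, adjusted p = 1.19e-06, edgeR). It was 3.90 on the log2 scale without DMSO replicate 1.

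Both the level and the fold change of ASNS need care, since another gene on the same strand shares much of its exons, those at the 3′ end included. GENCODE 44 lists the long non-coding gene AC079781.5 (ENSG00000284707) there, and 49.3% of the exonic bases of ASNS are also exonic in it. Of the last 500 bases of the canonical ASNS transcript, where these libraries read, 97.8% are shared. The rule by which reads in shared bases were counted is not given in the sources used here. If such reads were left out, both rows lack them, and a sum of the rows does not restore them. The level of ASNS and its fold change would then rest on the remaining reads. The row of AC079781.5 held 5 to 19 counts in the DMSO libraries and 3 to 15 in the SFN libraries (log2 fold change -0.26, standard error 0.40, adjusted p = 0.702, edgeR). With both rows summed as 1 gene, a step chosen after seeing the data, the log2 fold change was 2.46 (standard error 0.19, adjusted p = 4.38e-06, edgeR), well below the value from the ASNS row alone. Of the other enzymes only PYCR1 shared exonic bases with another gene on its strand, at 14.1%, and none of those were in its last 500 bases.

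**Figure D2:**
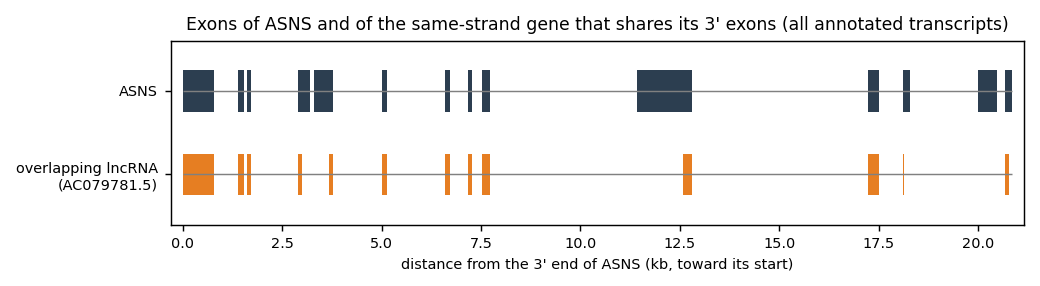
Exons (boxes, all annotated transcripts) of ASNS and of the same-strand gene AC079781.5, plotted by distance in kb from the 3′ end of ASNS. The boxes of both genes coincide at the 3′ end, where 97.8% of the last 500 bases of the ASNS transcript are shared.

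GLUL, glutamine synthetase, was the only one of the 8 to fall with all libraries included. It lies on chromosome 1 from 182378098 to 182392206. In DMSO the level was 56.1, 78.7, 82.5, 76.4 and 80.6 CPM in replicates 1 to 5. In SFN it was 50.5, 49.8, 49.0, 49.4 and 47.7 CPM. The treated libraries lay close together and all below the lowest control, which was DMSO replicate 1. The mRNA fell by 34.2% (log2 fold change -0.60, standard error 0.12, adjusted p = 0.0027, edgeR), and without DMSO replicate 1 the log2 fold change was -0.70 (standard error 0.072, adjusted p = 4.56e-06, edgeR).

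Whether 2 enzymes changed unequally was asked from their ratio within each library, which does not depend on how libraries are scaled. ASNS uses glutamine and GLUL makes it, and the log2 ratio of ASNS to GLUL counts rose from -7.44 ± 0.60 (SD, n = 5) to -3.09 ± 0.25 (SD, n = 5). The difference was 4.35 (standard error 0.29), a 20.4-fold shift, with every SFN library above every DMSO library. The exact two-sided permutation test gave p = 0.00794, the smallest that 5 against 5 libraries allow, and 0.0132 after Benjamini-Hochberg adjustment over the 5 ratios tested. Since ASNS rose and GLUL fell, each with no overlap between the groups, this p was fixed beforehand and adds no support. With the overlapping row added to ASNS, also chosen after seeing the data, the difference was 3.05 (standard error 0.12), an 8.28-fold shift with the same exact permutation p.

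The enzymes of proline synthesis did not move together. PYCR1, which makes proline in the last step, lies on chromosome 17 from 81932384 to 81942412. Its level in DMSO was 24.6, 40.9, 34.7, 40.4 and 36.6 CPM in replicates 1 to 5, and in SFN 45.2, 49.3, 46.7, 48.2 and 46.2 CPM. The groups did not overlap, and the treated libraries were close to each other. The rise was 1.33-fold (0.41 on the log2 scale, standard error 0.14) and barely past the threshold (adjusted p = 0.0479, edgeR), and 5 of 18 alternative analyses kept that call. Leaving out DMSO replicate 1, the lowest library, gave a smaller rise with a narrower spread (log2 fold change 0.30, standard error 0.082, adjusted p = 0.00875, edgeR). On the opposite strand the gene AC145207.4 covers 77.4% of the last 500 bases of PYCR1. Its row held 1 to 11 counts in any library, and since the use of strand is not given, reads of both cannot be told apart.

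ALDH18A1, the enzyme of the first steps from glutamate, lies on chromosome 10 from 95605941 to 95656711. Its level in DMSO was 51.3, 78.4, 89.6, 82.3 and 82.9 CPM in replicates 1 to 5, and in SFN 68.9, 74.5, 75.0, 68.1 and 69.0 CPM. The SFN libraries lay below 4 of the DMSO libraries and above DMSO replicate 1. Over all libraries the log2 fold change was -0.11 (standard error 0.14, adjusted p = 0.622, edgeR). With DMSO replicate 1 left out it was -0.24 (standard error 0.077) and past the threshold as a decrease (adjusted p = 0.0224, edgeR). The log2 ratio of PYCR1 to ALDH18A1 rose from -1.12 ± 0.17 (SD, n = 5) to -0.59 ± 0.066 (SD, n = 5), a difference of 0.52 (standard error 0.080) with no overlap between the groups. DMSO replicate 1 lay among the other controls in this ratio, at -1.06. The exact permutation test again gave p = 0.00794, and 0.0132 after adjustment.

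GPT2 had the largest change of the 4 transaminases among the 8 enzymes. This mitochondrial enzyme makes alanine from pyruvate and glutamate, and its gene lies on chromosome 16 from 46884362 to 46931289. The level was 27.6, 33.1, 29.5, 32.2 and 31.0 CPM in DMSO replicates 1 to 5, and 63.4, 63.0, 67.1, 66.5 and 68.4 CPM in SFN. Every SFN value lay far above every DMSO value. GPT2 rose 2.14-fold (1.10 on the log2 scale, standard error 0.093, adjusted p = 8.99e-06, edgeR), and without DMSO replicate 1 the log2 fold change was 1.06. Its cytosolic relative GPT had at most 5 counts in a library and was not tested.

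GOT1 and GOT2 carry out the same reaction, the exchange of an amino group between aspartate and glutamate, on either side of the inner mitochondrial membrane. The cytosolic GOT1, on chromosome 10 from 99396870 to 99430624, had 582, 894, 735, 564 and 642 counts in DMSO replicates 1 to 5 and 808, 658, 675, 773 and 639 in SFN. From 34.0 to 41.1 CPM in DMSO it rose to 45.1 to 56.8 CPM in SFN, with no library of one group inside the range of the other. The rise was 1.33-fold (0.41 on the log2 scale, standard error 0.10, adjusted p = 0.0134, edgeR), and 16 of 18 alternatives kept the call. The mitochondrial GOT2, on chromosome 16 from 58707131 to 58734342, had 99.6, 188, 177, 199 and 187 CPM in DMSO and 191, 198, 185, 172 and 193 CPM in SFN. Apart from DMSO replicate 1, which was far below the rest, the GOT2 groups overlapped throughout. The GOT2 log2 fold change was 0.14 (standard error 0.17, adjusted p = 0.607, edgeR), and -0.0070 (standard error 0.074) without that library.

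Whether GOT1 and GOT2 differed in response depended on that library. Over all libraries the log2 ratio of GOT1 to GOT2 was -2.13 ± 0.41 (SD, n = 5) in DMSO and -1.90 ± 0.15 (SD, n = 5) in SFN (difference 0.23, standard error 0.19, exact permutation p = 0.286, adjusted 0.357). Once DMSO replicate 1 was left out, whose ratio of -1.46 was the highest of all, the difference was 0.39 (exact permutation p = 0.0159, adjusted 0.0198). GPT2, by contrast, rose against GOT2 with all libraries included. The log2 ratio of GPT2 to GOT2 was -2.43 ± 0.33 (SD, n = 5) in DMSO and -1.51 ± 0.11 (SD, n = 5) in SFN, a difference of 0.92 (standard error 0.15, exact permutation p = 0.00794, adjusted 0.0132).

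BCAT1, the cytosolic transaminase of leucine, isoleucine and valine, lies on chromosome 12 from 24810024 to 24949101. Its level ranged from 331 to 472 CPM in DMSO (median 437) and from 319 to 474 CPM in SFN (median 377). SFN replicate 5 was the highest of all 10 libraries, and the other SFN libraries lay below 4 of the 5 controls. The log2 fold change was -0.16 (standard error 0.14, adjusted p = 0.466, edgeR), and -0.24 (standard error 0.10, adjusted p = 0.0665) without DMSO replicate 1. The ratio of BCAT1 to its mitochondrial relative BCAT2 was 5.36 ± 0.81 on the log2 scale (SD, n = 5) in DMSO and 5.27 ± 0.56 (SD, n = 5) in SFN (difference -0.086, standard error 0.44, exact permutation p = 0.849, adjusted 0.849). DMSO replicate 1 lay far below the other controls in this ratio, at 3.92 against 5.61 to 5.81, and without it the difference was -0.45 (exact permutation p = 0.175). With the standard error over all libraries a change in that ratio of the size seen for PYCR1 and ALDH18A1 was not detectable.

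The neighbouring pathways were described with 6 lists of 47 further genes, of which 40 were in the table and 34 were tested. Of these, 1 rose and 4 fell (edgeR), where 9.07% and 13.9% of all genes did, with a median log2 fold change of -0.077. At an unadjusted p under 0.05, 2 were higher and 9 lower, where 14.6% and 20% of all genes were. The increased gene was PSAT1, the transaminase of serine synthesis, which went from 56.6 ± 5.30 to 152 ± 10.9 CPM (SD, n = 5 each), a 2.69-fold rise (1.43 on the log2 scale, standard error 0.10, adjusted p = 2.65e-06, edgeR). It was the only gene past the threshold among the 6 other transaminases tested with all libraries included. Of those 6, 2 rose without DMSO replicate 1. Without DMSO replicate 1, 7 of the 34 rose and 9 fell, at a background of 22.5% and 23.5% of the genes tested in that comparison. With any 1 of the other 9 libraries left out, 1 or 2 of the 34 fell instead of 4.

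Among the malate-aspartate shuttle partners of GOT1 and GOT2, the carriers that exchange aspartate for glutamate across the inner mitochondrial membrane passed the threshold as decreases with all libraries included, but not firmly. SLC25A12 had a log2 fold change of -0.51 (standard error 0.15, adjusted p = 0.0251, edgeR) and SLC25A13 of -0.39 (standard error 0.12, adjusted p = 0.044, edgeR). The ranges of the groups overlapped in both genes. Neither passed in 7 of the 10 analyses that left out 1 library, and 12 of all 18 alternatives lost at least 1 of the calls. Without DMSO replicate 1 both passed, at -0.63 and -0.47. The malate dehydrogenases MDH1 and MDH2 had log2 fold changes of 0.029 and 0.27, neither past the threshold. In DMSO replicate 1 both were the highest of the controls, and without it the values were 0.46 and 0.52 and both passed (adjusted p = 0.00682 and 0.00588, edgeR).

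Other enzymes take the amide nitrogen of glutamine, as ASNS does. Of 8 such amidotransferases 0 rose and 2 fell by edgeR, which is near the 9.07% and 13.9% of all genes. At an unadjusted p under 0.05, 0 were higher and 5 lower, beside 14.6% and 20% of all genes. PPAT, which commits to purine synthesis, had a log2 fold change of -0.52 (standard error 0.10, adjusted p = 0.00302, edgeR) with no overlap between the groups. CTPS1, which makes CTP, had -0.37 (standard error 0.11, adjusted p = 0.0371, edgeR). The list's median was -0.35. CAD, PFAS, CTPS2 and GMPS fell too when DMSO replicate 1 was left out, making 6 of 8 beside 23.5% of all genes, and 1 fell with any other library left out. GFPT1 and GFPT2, which feed the hexosamine pathway, had log2 fold changes of 0.26 and 0.013 and were not past the threshold with or without that library.

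The remaining lists held few changes with all libraries included. Of the 6 tested genes of asparagine and proline metabolism beyond the enzymes above, 0 rose and 0 fell by edgeR. Over all genes 9.07% and 13.9% did. At an unadjusted p under 0.05, 0 were higher and 1 lower, beside 14.6% and 20% of all genes. Without DMSO replicate 1, 2 of the 6 rose and 1 fell, beside 22.5% and 23.5% of the genes tested in that comparison. The glutamate dehydrogenase GLUD1 had a log2 fold change of 0.046 (standard error 0.12) and was not past the threshold. For the breakdown of branched-chain keto acids, downstream of BCAT1, 0 of 6 tested genes passed the threshold by edgeR, beside 9.07% and 13.9% of all genes, and 1 was higher and 0 lower at an unadjusted p under 0.05. That gene was PPM1K, a phosphatase that activates the branched-chain keto acid dehydrogenase, with a log2 fold change of 0.35, and of 0.43 without DMSO replicate 1 (adjusted p = 0.00622, edgeR). A single gene of this list passed as an increase with DESeq2 and with limma-voom too. OAT, which links ornithine to proline, had 0.19, and was past the threshold without DMSO replicate 1 (0.23) but not with all libraries.

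**Figure D3:**
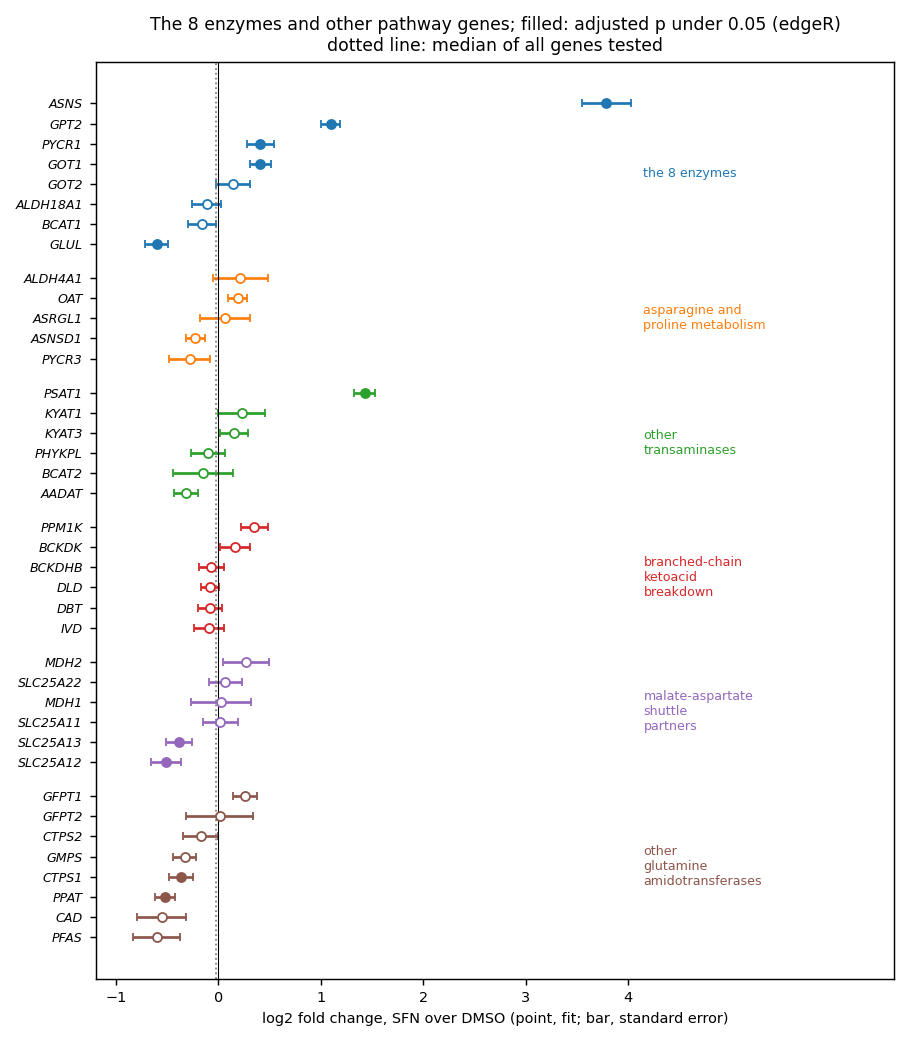
Log2 fold change of SFN over DMSO with its standard error for the 8 enzymes and for tested genes of 5 neighbouring lists, filled where the adjusted p was under 0.05. ASNS lies far to the right at 3.79, PSAT1 and GPT2 follow at 1.43 and 1.10, and the 4 filled points of the other lists that lie left of 0 are SLC25A12, SLC25A13, PPAT and CTPS1.

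The genes whose log2 CPM over the 10 libraries most resembled each enzyme were listed by Pearson's r. For GPT2 they were MTHFD2, an enzyme of mitochondrial one-carbon metabolism (r = 0.997), DNAJB11 (0.996) and MAPKAPK2 (0.994). For ASNS they were THOC6 (0.994), RSRC2 (0.993) and the heat shock gene HSPA1A (0.992). For GLUL they were SLC35E4 (0.994), RHPN2 (0.989) and UCK2 (0.986), and for GOT1 they included CERCAM (0.965) and HSPB8 (0.965). PYCR1 was most like ENO1 (0.977), ALDH18A1 like QRICH1 (0.972), GOT2 like CORO2B (0.991) and BCAT1 like CCDC14 (0.995). Where the groups of an enzyme lay apart, r reflects, at least in part, the split between DMSO and SFN. The groups of ALDH18A1, GOT2 and BCAT1 overlapped, and DMSO replicate 1 was the lowest control in each. What r reflects for these enzymes was not tested.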

How the data were processed

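Per the labels and methods, RNA from RPE-1 cells was sequenced as QuantSeq libraries. The authors aligned the reads with the Bluebee pipeline, and the submitters' processing notes name STAR, featureCounts and the builds hg38 and GRCh38. What the authors deposited is a table of raw read counts for each Ensembl gene, not normalized, with 1 column per replicate. The annotation release, strand setting and use of molecular identifiers are not given in the sources used here. Replicate pairs differed by more than sampling noise (chi-square per degree of freedom 3.70 to 280).

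Genes were filtered with filterByExpr, scaled by TMM and tested with glmQLFit and glmQLFTest of edgeR 4.0.16 (R 4.3.3), with Benjamini-Hochberg adjustment over all genes tested and a threshold of 0.05. Standard errors were taken as the size of the log2 change divided by the square root of F. Ratios used log2 counts plus 0.5 and exact two-sided permutation tests (252 splits). Alternatives used limma 3.58.1 and DESeq2 1.42.0. The edgeR step was tested on simulated counts. Positions and overlaps come from GENCODE 44, which holds 28145 of the 28380 identifiers.

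The 8 genes, the gene lists and the tests were chosen with earlier results of these data known. Genes named outside the 8 are those past the threshold in each list, at most 3 per direction, and the 3 most alike in log2 CPM with a mean of at least 5 CPM. Others (GPT, BCAT2, MDH1, MDH2, CAD, PFAS, CTPS2, GMPS, GFPT1, GFPT2, GLUD1, OAT, PPM1K, BEST1, PMEL, MITF and the overlapping genes) were named after their values were seen. The study's dream model with its repeated measure was not run, and 7 listed genes were not analysed here. Some listed genes are counted but not reported by name.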

Additional observations from a re-analysis of the deposited data

Results flagged for a closer look

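Of 30 groups of 5 libraries examined (the 8 enzymes, the 5 ratios, the total count and the correlation with the other libraries), 6 had 1 library apart from the rest, and all 6 times it was DMSO replicate 1. Chance gives about 1 in 20, or 1.5, for independent groups. These groups share libraries and genes, so 1 odd library can be flagged several times. The gap to the nearest library, as a share of the group's range, was 0.772 for GOT2, 0.772 for GLUL and 0.748 for BCAT1, each the lowest control, 0.898 for the ratio of BCAT1 to BCAT2, 0.847 for the ratio of GPT2 to GOT2, and 0.933 for the mean Spearman correlation with the other DMSO libraries.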

How the results depend on the processing

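ASNS, GPT2 and GLUL kept their direction and call in every alternative run (ASNS 2.46 to 3.96, GPT2 1.01 to 1.12, GLUL -0.70 to -0.57 on the log2 scale). The increased enzymes numbered 2 instead of 4 with library size only and with no low-count filter, because PYCR1 and GOT1 lost their call (PYCR1 0.31 and 0.39, GOT1 0.32 and 0.40). PYCR1 also lost it with upper quartile scaling (0.38). With each library left out in turn, PYCR1 ranged from 0.30 to 0.47 and was past the threshold only without DMSO replicate 1, ALDH18A1 from -0.24 to -0.055, GOT2 from -0.0070 to 0.20, the increased enzymes from 3 to 4, the decreased enzymes from 1 to 2, the increased pathway genes from 1 to 7 and the decreased ones from 1 to 9, and all genes increased from 906 to 3058 and decreased from 1470 to 3193. The extremes of ALDH18A1 at -0.24, GOT2 at -0.0070 and the highest counts of decreased enzymes, of pathway genes and of all genes came without DMSO replicate 1. The ratio of GOT1 to GOT2 ranged from 0.12 to 0.39 and that of BCAT1 to BCAT2 from -0.45 without DMSO replicate 1 to 0.10, positive at 0.017, 0.025 and 0.10 without DMSO replicate 4, DMSO replicate 5 and SFN replicate 2. Increased pathway genes numbered 2 with DESeq2, limma-voom and no low-count filter, and decreased ones 2 with no low-count filter.

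Same-numbered replicates were not taken as pairs, since the correlations of their deviations lay between -0.267 and 0.484 and only the pair numbered 5 correlated best with its own number; what the study's repeated measure was is not given in the sources used here. With the replicate block PYCR1 was no longer past the threshold (0.43), the decreased pathway genes numbered 2, and the ratios of PYCR1 to ALDH18A1 (0.52), ASNS to GLUL (4.35) and GPT2 to GOT2 (0.92) had p = 0.0625, the smallest an exact sign-flip permutation test over 5 pairs allows. Counts as low as those of ASNS in DMSO limit the precision of its fold change. The causes were not tested.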
